A study of Mus musculus with 56 samples.

Results

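Potassium channel genes are described here through the H2A.Z peaks that the authors listed as changed after induction of RNase H1 in mouse embryonic stem cells. A peak was included if the gene name in the authors' deposited lists was a potassium channel symbol, that is Kcn followed by letters and a number. The rule found 85 of the 9395 listed peaks. Of these, 82 were in the list of peaks with lower H2A.Z, at 52 genes, and 3 were in the list with higher H2A.Z, at 2 genes. No header gives the contrast, and lower and higher are taken from the list names to mean treated against control cells.

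The data come from CUT&Tag, in which an antibody guides a transposase to a chromatin protein so that tagged DNA marks its position. The cells were RHKI, a line derived from E14Tg2a embryonic stem cells that carries an HA-Rnaseh1 knock-in, and control and treated cells share this genotype. For H2A.Z there were 4 control libraries without doxycycline and 4 libraries from cells kept for 48 hours in 500 ng/ml doxycycline (labelled Dox). The 2i/LIF culture medium contained PD0325901 at 1 µM, CHIR-99021 at 3 µM, and FBS at 2%. All 8 libraries carry the knock-in, so an effect of doxycycline itself cannot be told apart from that of RNase H1. The deposited files give positions only, with no value per library, fold change or p-value. Depth and the spread between libraries are therefore unknown here, no test was made, and every comparison below is a description of counts, distances and widths. H2A.Z peaks do not measure expression, so neither the cell type nor the induction of Rnaseh1 could be checked.

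Potassium channels let potassium ions leave or enter cells and so set the resting membrane potential and end action potentials. The pore is formed by voltage-gated, tandem-pore, inward rectifier and calcium- or sodium-activated alpha subunits, and auxiliary subunits change their gating or bring them to the membrane. Most are used by neurons, heart, muscle, kidney and secretory cells. H2A.Z is a variant of histone H2A that sits beside transcription start sites (TSSs) and at enhancers, also at developmental genes that are not transcribed in stem cells. RNase H1 cuts the RNA of RNA:DNA hybrids (R-loops), which form most readily where the non-template strand is rich in G.

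The sequences below are the 250 bases upstream of the TSS at 6 genes with a lower peak over that TSS assigned to the same gene, and they show how much base composition varied among these start regions. The stretches were taken from RefSeq promoters of GRCm38.p6, only where the TSS of the promoter table lay within 5 base pairs of the 5′ boundary of the gene in the gene table. Chromosomes 8 and 18 were left out. Other genes with a lower peak over a TSS are not shown. The sequences run 5′ to 3′ on the strand of the gene, and have CpG dinucleotides in capitals. The first, upstream of the small-conductance calcium-activated channel gene Kcnn3, lies at chr3:89519914-89520163 (plus strand), has 10 CpGs and holds 97 G against 50 C.
Kcnn3: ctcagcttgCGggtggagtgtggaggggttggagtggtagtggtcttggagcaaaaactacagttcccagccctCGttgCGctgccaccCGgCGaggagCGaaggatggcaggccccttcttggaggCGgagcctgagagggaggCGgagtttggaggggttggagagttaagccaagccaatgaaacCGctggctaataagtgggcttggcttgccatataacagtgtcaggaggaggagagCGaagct
The next lies upstream of the tandem-pore channel gene Kcnk12 at chr17:87797995-87798244 (minus strand), with 16 CpGs, 74 G and 88 C.
Kcnk12: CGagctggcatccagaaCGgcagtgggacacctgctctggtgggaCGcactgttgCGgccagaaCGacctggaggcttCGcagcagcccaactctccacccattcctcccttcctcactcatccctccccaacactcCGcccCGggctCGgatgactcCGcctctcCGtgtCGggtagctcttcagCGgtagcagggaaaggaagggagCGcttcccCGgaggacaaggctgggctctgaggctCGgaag
Upstream of Kcnq5, a channel of the neuronal M-current, the stretch at chr1:21962651-21962900 (minus strand) has 3 CpGs, 60 G and 51 C, and the peak reached only into its last bases, next to the TSS.
Kcnq5: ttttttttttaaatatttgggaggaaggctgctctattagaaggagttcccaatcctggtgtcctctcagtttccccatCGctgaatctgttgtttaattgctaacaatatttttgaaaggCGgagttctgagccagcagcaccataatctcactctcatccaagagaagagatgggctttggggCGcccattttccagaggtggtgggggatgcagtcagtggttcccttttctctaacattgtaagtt
Upstream of Kcna5, which carries the ultrarapid repolarising current of the atrium, the stretch at chr6:126535556-126535805 (minus strand) also has 3 CpGs, with 41 G and 92 C.
Kcna5: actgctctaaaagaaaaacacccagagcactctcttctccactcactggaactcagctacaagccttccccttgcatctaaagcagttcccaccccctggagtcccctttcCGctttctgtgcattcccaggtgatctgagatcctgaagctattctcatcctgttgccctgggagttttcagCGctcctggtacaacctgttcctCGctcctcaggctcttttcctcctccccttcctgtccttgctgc
The tandem-pore channel gene Kcnk18, known from sensory neurons, is shown by chr19:59219398-59219647 (plus strand), with 5 CpGs, 65 G and 69 C.
Kcnk18: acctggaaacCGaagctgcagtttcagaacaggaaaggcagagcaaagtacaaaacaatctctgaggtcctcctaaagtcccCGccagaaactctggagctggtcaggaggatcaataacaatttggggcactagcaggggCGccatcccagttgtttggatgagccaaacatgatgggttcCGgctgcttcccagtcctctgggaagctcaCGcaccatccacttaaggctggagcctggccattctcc
The last, at Kcnk15, another tandem-pore gene, is chr2:163853500-163853749 (plus strand), with 17 CpGs, 95 G and 68 C.
Kcnk15: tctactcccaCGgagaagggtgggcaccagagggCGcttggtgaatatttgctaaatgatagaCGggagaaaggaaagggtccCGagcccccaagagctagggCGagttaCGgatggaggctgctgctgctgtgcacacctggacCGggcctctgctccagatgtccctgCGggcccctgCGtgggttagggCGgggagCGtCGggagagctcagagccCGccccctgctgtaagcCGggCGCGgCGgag
Across these 6 stretches GC content ran from 44.4% at Kcnq5 to 65.2% at Kcnk15, and G outnumbered C in 3 of them (Kcnn3, Kcnq5 and Kcnk15). All 6 lie upstream of the TSS, so their letters are not a measure of R-loops in the transcript that starts there.

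In the whole set of 61420 H2A.Z peaks, 14.8% were in the lower list and 0.518% in the higher list. Of the 92 potassium channel genes in the RefSeq table of GRCm38.p6, 52 (56.5%) were assigned a lower peak, against 26.8% of 21887 protein-coding genes. This count moves with how many peaks a gene holds. A peak of the set was centred inside 88.0% of the potassium channel genes and 51.4% of all protein-coding genes, with means of 2.89 and 1.25 peaks per gene and median gene lengths of 34.5 and 17.2 kb. The part of peak number and gene length in the gene count was not tested.

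Per peak the difference was smaller. Of 266 peaks centred inside potassium channel genes, 77 were lower (28.9%, 95% exact Clopper-Pearson interval 23.6 to 34.8%), against 22.4% of 26314 peaks inside all protein-coding genes. Of 62 peaks with their centre at most 1 kb from a potassium channel gene end, 23 were lower (37.1%, 25.2 to 50.3%), and the share for all protein-coding genes, 30.0%, lies inside this interval. No higher peak was at an end of or inside a potassium channel gene (0 of 266 inside). Higher peaks were rare at all protein-coding genes too, with 85 of 26314 inside and 6 of 10313 at ends. A count of 0 is thus near the share for all genes. The intervals hold for counting error only, and peaks of one gene share their source.

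**Figure D1:**
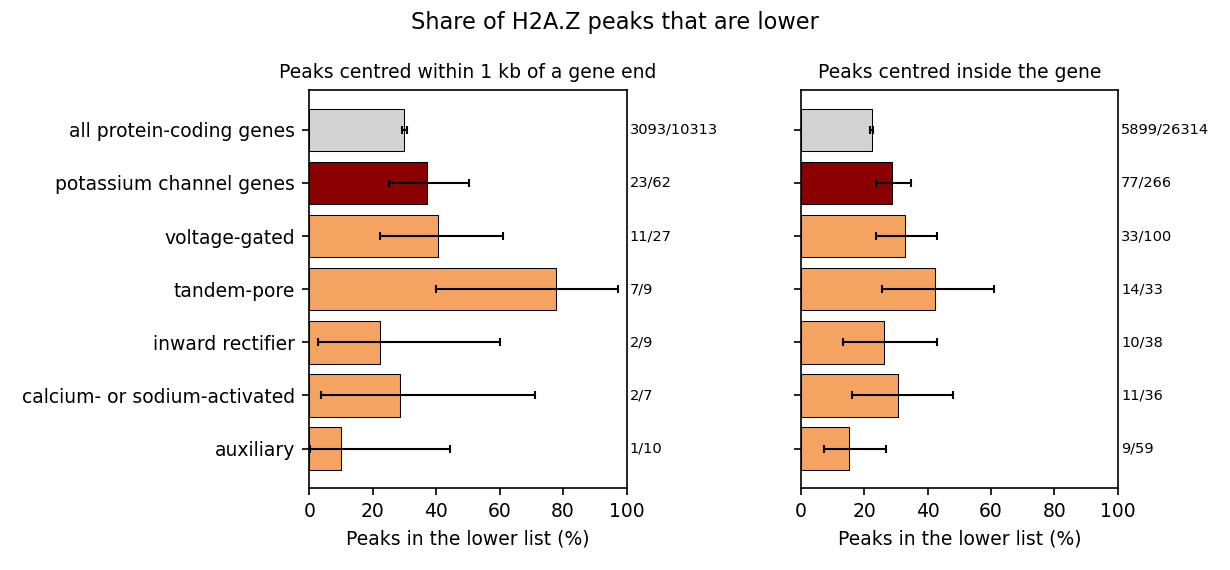
Bars give the percentage of H2A.Z peaks of the whole set that are in the lower list, for peaks centred within 1 kb of a gene end (left) and inside the gene (right), with exact 95% Clopper-Pearson intervals and the counts beside each bar. At gene ends the tandem-pore genes have 7 of 9 peaks lower and the auxiliary genes 1 of 10; the wide intervals reflect the small counts.

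By the authors' annotation, 17 of the 82 lower potassium channel peaks were in promoters (20.7%, 12.6 to 31.1%; all lower peaks, 18.9%) and 6 in 5′ UTRs (7.32%; all lower peaks, 4.52%). Exons held 22 (26.8%, 17.6 to 37.8%), against 15.9% of all lower peaks. Introns also held 22 (27.8% of all lower peaks), 1 was in a 3′ UTR, and 14 were intergenic (17.1%, 9.66 to 27%), against 29.4% of all lower peaks. The exon and intergenic shares of all lower peaks thus lie just outside the intervals of the potassium channel peaks. Of the 22 exon peaks, 8 were in exon 1, at 236 to 1147 base pairs from the TSS, and 6 were in the last of several exons.

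The median distance from peak centre to the nearest TSS was 2.83 kb (quartiles 0.528 and 31.1 kb), and that of all lower peaks was 5.57 kb (0.331 and 28.1 kb). The 95% order-statistic interval of the potassium channel median, 0.865 to 9.94 kb, contains the median of all lower peaks. Without peaks of the minimum width the potassium channel median was 1.66 kb. Within 1 kb of a TSS lay 33 of the 82 (40.2%; all lower peaks, 38.3%), and 8 lay beyond 100 kb (9.76%; all lower peaks, 9.57%). More peaks were centred downstream of the TSS (55) than upstream (27), as among all lower peaks (5758 and 3310). The peak itself reached over the TSS in 33 cases, each at a different gene (40.2%; all lower peaks, 36.7%).

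**Figure D2:**
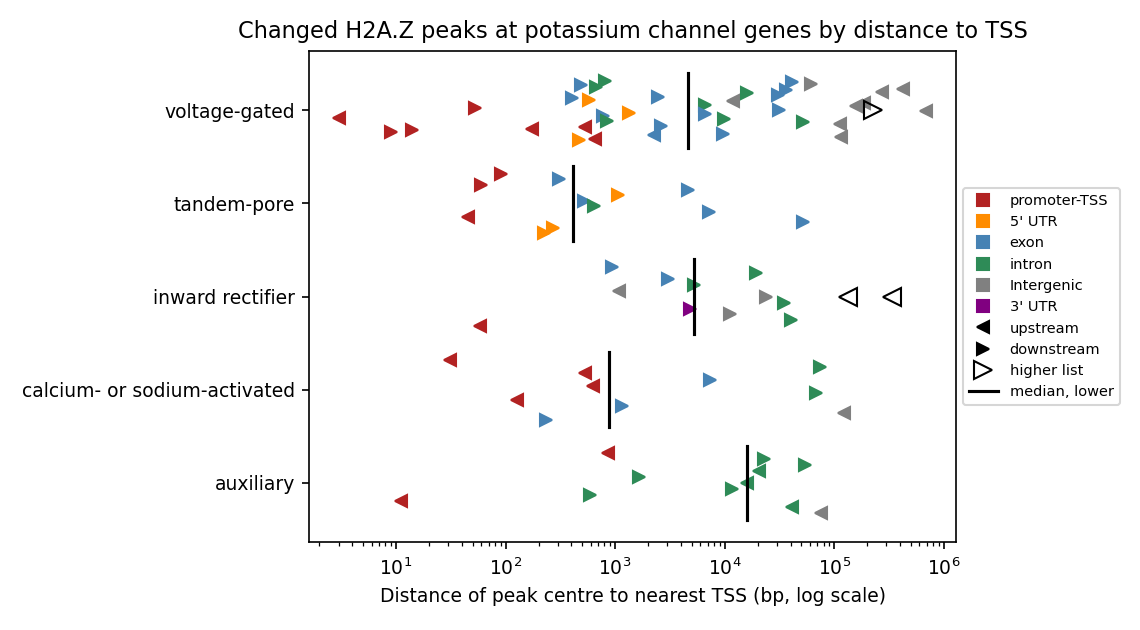
Each triangle is a listed peak at a potassium channel gene, by distance of its centre to the nearest TSS (base pairs, log scale) and channel group, with colour for annotation class, left- and right-pointing triangles for upstream and downstream, open triangles for the higher list, and a bar at each group's median of lower peaks. Medians run from 0.412 kb in the tandem-pore group to 16.1 kb in the auxiliary group, and the 3 higher peaks all lie beyond 100 kb.

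Median width was 1036 base pairs (quartiles 691.2 and 1693), next to 1034 for all lower peaks. Peaks over a TSS were wider than the rest, with medians of 1695 base pairs (33 peaks) and 781 base pairs (49 peaks), an order that the definition favours, since a wider peak reaches a TSS from farther away. All lower peaks showed the same order, at 1462 and 877 base pairs. At least 2 kb wide were 17 peaks (20.7%; all lower peaks, 17.1%), and 11 had the minimum of 501 base pairs (13.4%; all lower peaks, 15.4%).

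The widest lower peak, 6484 base pairs, was annotated to intron 10 of 14 of Kcnh2, which encodes the hERG channel of cardiac repolarisation. This peak extended beyond that intron. It started at 24319772 on chromosome 5, close to the gene boundary at 24319589 on the side away from the promoter. It ranked 62 by width among all lower peaks, and 98.5% of the peak set was narrower. Next came the promoter peaks of Kcnn1 (4854 base pairs) and, over its TSS, Kcnip3 (3477), which encodes a calcium-binding protein that regulates A-type channels and transcription. The others of 3 kb or more were at Kcnj12 (3363), Kcnn3 (3347), Kcnn2 (3313), Kcna1 (3291) and Kcnj4 (3079 and 3032).

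**Figure D3:**
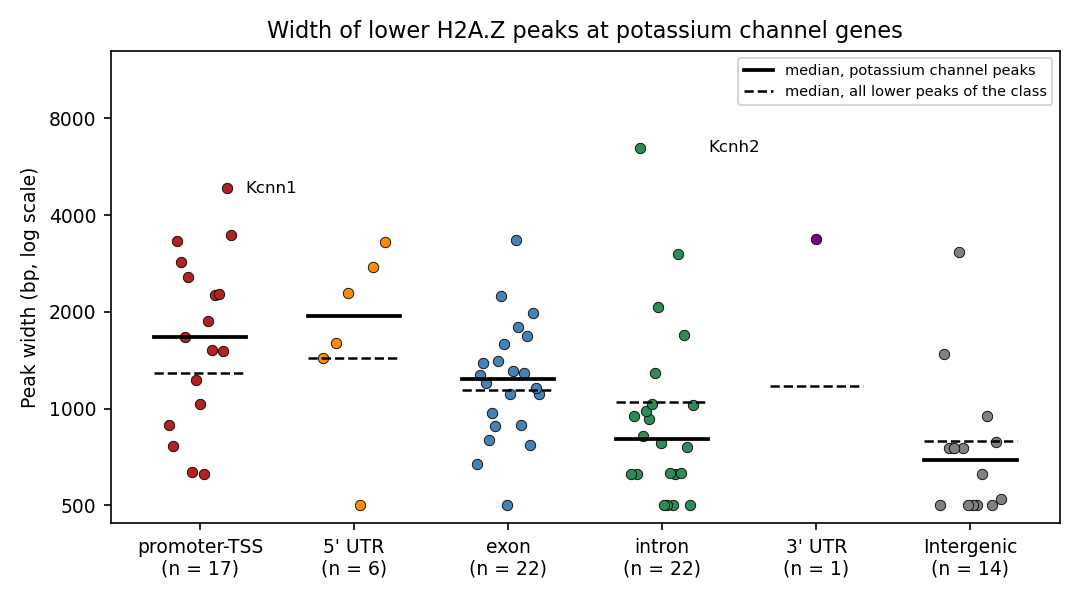
Each point is the width in base pairs (log scale) of a lower peak at a potassium channel gene, by annotation class, with the median of these peaks (solid bar, drawn for more than 1 peak) and of all lower peaks of the class (dashed bar). Promoter peaks have a median of 1667 base pairs against 1292 for all lower promoter peaks, and intron peaks 802 against 1050.

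Voltage-gated alpha subunits had 38 lower peaks at 23 of 40 genes, and at 13 of them a peak lay over a TSS. Among the Kcna genes, which carry fast delayed-rectifier and low-threshold currents, 3 of 8 had a lower peak, all over the TSS. These were Kcna1 (3291 base pairs), Kcna6 (1601) and Kcna5 (1687), which are neighbours on chromosome 6. From one lower peak to the next, the gaps were 107 kb (Kcna5 to Kcna1) and 93.2 kb (Kcna1 to Kcna6). The Kcna2 and Kcna3 genes, neighbours on chromosome 3, held 2 peaks and 1 peak, all in neither list, and no peak was centred at Kcna7 or Kcna10.

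The Kcnc channels allow fast spiking in neurons. A lower peak of 2868 base pairs was centred 9 base pairs from a TSS of Kcnc2, and one of 2564 base pairs at −528 base pairs from that of Kcnc4. Kcnc1 had a narrow 5′ UTR peak (501 base pairs, 467 base pairs from the TSS) and one of 969 base pairs in its last exon.

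Channels of the Kcnb, Kcnd and silent subunit families were spread over near and far positions. Kcnb2, a delayed rectifier, had a promoter peak of 1667 base pairs at 53 base pairs. Of the Kcnd genes, which carry A-type currents, Kcnd2 and Kcnd3 had only intergenic lower peaks, 114 to 694 kb upstream, and all 4 were in L1Md elements, young mouse LINE retrotransposons. The end peaks of Kcnd1, Kcnd2 and Kcnd3, 1 each, were in neither list.

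Silent subunits, which make no current alone and modify Kcnb channels, had 10 lower peaks at 6 genes. Kcng1 had 3, at 6.63 kb in its last exon, in a CpG island at 12.0 kb upstream, and at 157082 base pairs upstream. These distances are to a TSS inside the gene. The CpG-island peak was itself centred inside Kcng1 and overlapped its 5′ boundary. Kcng2 had a CpG-island intron peak (2071 base pairs) over its TSS and an exon peak at 41.5 kb, and Kcng4 had exon peaks at 2.44 and 9.59 kb. Kcns2 had a promoter peak of 1874 base pairs at 14 base pairs, and Kcns1 an exon peak at 2.65 kb. Kcnv2, known from photoreceptors, had an exon 1 peak of 1980 base pairs over its TSS.

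The Kcnh and Kcnq genes include the main repolarising channels of the heart. Beside its wide peak annotated to an intron, Kcnh2 had a promoter peak of 1518 base pairs at −654 base pairs and an exon peak of 801 base pairs. Kcnh1 had a minimum-width intron peak at 667 base pairs and Kcnh4 an intron peak at 9.94 kb, while Kcnh3 and Kcnh5 to Kcnh8 held only peaks in neither list.

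Kcnq1, whose channel carries the slow delayed rectifier of the heart, had a promoter peak of 1512 base pairs centred 3 base pairs from the TSS. Kcnq5, of the M-current, had an exon 1 peak over its TSS (2246 base pairs) and 2 intergenic L1Md peaks at 116 and 274 kb. The 6 peaks inside Kcnq3 were in neither list.

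Tandem-pore channels, which carry leak currents that hold the resting potential, had 12 lower peaks at 9 of 14 genes, and at all 9 a peak lay over the TSS. Their median distance was 0.412 kb (order-statistic interval 0.091 to 4.66 kb). Kcnk2 and Kcnk4, which open on stretch and warmth, had a promoter peak of 1036 base pairs at −45 base pairs (Kcnk2) and a CpG-island intron peak of 1695 base pairs at 642 base pairs (Kcnk4). Kcnk9, an acid-sensitive channel and imprinted gene, had a 5′ UTR peak of 1438 base pairs at 269 base pairs. Kcnk12 (2287 base pairs) and Kcnk13 (2750) had wide 5′ UTR peaks. Kcnk1 and Kcnk6, which give weak currents, had exon 1 peaks of 1594 and 1275 base pairs, and Kcnk18 and Kcnk15 had narrow promoter peaks of 888 and 636 base pairs.

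At the ends of tandem-pore genes 7 of 9 peaks were lower (77.8%, 40.0 to 97.2%), against 30.0% for all protein-coding genes. They were at 5 of the 7 genes with an end peak. Inside tandem-pore genes 14 of 33 peaks were lower (42.4%, 25.5 to 60.8%), against 22.4% for all protein-coding genes. Peaks in neither list reached over TSSs of Kcnk10 (5212 base pairs) and Kcnk16 (3587) but were centred outside the end windows. Kcnk12 and Kcnk15 had a lower peak at each end, in the last exon and over the TSS. Kcnk6 and Kcnk18 had one at the TSS, and the one at an end of Kcnk4 was assigned to Catsperz. The genes without an assigned lower peak were Kcnk3, Kcnk5, Kcnk7, Kcnk10 and Kcnk16. Kcnk3 held 2 lower peaks that the annotation gives to Gm9899 and Mir5625, and Kcnk5 had no peak centred inside it or at an end, although one of 4381 base pairs in neither list reached over its TSS.

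Inward rectifiers pass current mainly into the cell and steady the resting potential. They had 11 lower peaks at 7 of 15 genes, and only at Kcnj5 and Kcnj4 did a peak lie over the TSS. Kcnj4 had the most lower peaks of any gene here, 4 within 26.7 kb, with widths of 752, 3032, 823 and 3079 base pairs. All 5 peaks inside Kcnj4 were lower, and the fifth was assigned to Kdelr3. Kcnj12, a closely related strong rectifier, had a 3′ UTR peak of 3363 base pairs and an intergenic one of 628.

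Among subunits of the G protein-gated channels that slow the heart and quiet neurons, Kcnj5 had a promoter peak of 1230 base pairs at −58 base pairs. Kcnj9 had an exon peak at 3011 base pairs and Kcnj6 an intron peak at 35.0 kb. Kcnj6 holds 16 peaks, and the other 15 were in neither list. Kcnj11, the pore of the ATP-sensitive channel that controls insulin release, had a peak of 1797 base pairs in its single exon at 945 base pairs. The peak assigned to Kcnj1, a kidney channel, lay 40.5 kb from its TSS in intron 5 of 8 of Fli1, which encodes an ETS transcription factor.

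Calcium- or sodium-activated channels had 10 lower peaks at 6 of 8 genes, with a peak over the TSS at all 6. All 4 Kcnn genes are among them. The small-conductance channel genes Kcnn1, Kcnn2 and Kcnn3, which shape the after-hyperpolarisation of neurons, had peaks of 4854, 3313 and 3347 base pairs, centred at −530, −626 and 1147 base pairs. Kcnn4, the intermediate-conductance channel of lymphocytes and red cells, had a narrower promoter peak (767 base pairs at −31) and an exon 3 peak (882 base pairs). Kcnn3 also had intron peaks at 68.5 and 74.6 kb, but 9 of the 13 peaks inside it were in neither list.

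Kcnma1, the large-conductance calcium-activated channel, had a promoter peak of 2274 base pairs at −128 base pairs. Both peaks inside Kcnma1 were lower, and the other was assigned to Gm10248. Kcnt1, a sodium-activated channel, had an exon 1 peak of 1108 base pairs at 236 base pairs. The related Kcnt2 and Kcnu1 held 7 and 6 peaks, all in neither list.

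Auxiliary subunits had 11 lower peaks at 7 of 15 genes, and these lay farther from TSSs, at a median of 16.1 kb (order-statistic interval 0.592 to 53.8 kb). Of the 11, 8 were in introns and the median width was 629 base pairs. Over a TSS lay the peaks of Kcnip3 (3477 base pairs), Kcnip2 (627 base pairs at −11), which supports the transient outward current of the heart, and Kcnab2 (1292 base pairs), a cytoplasmic beta subunit. All 3 peaks inside Kcnab2 were lower.

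The large-conductance beta subunit genes had no lower peak over a TSS. Kcnmb3 had intron peaks at 1.66 and 11.6 kb, and Kcnmb2 an intergenic L1Md_A peak at 75.9 kb. The peak assigned to Kcnmb1 lay inside Kcnip1, whose own peak was outside the gene in an L1Md_Gf element. The 4 Kcne genes had no lower peak, with 5 peaks inside them in neither list. Kcnip4 held 14 peaks, the most of any gene of the family without a lower one. Over all auxiliary genes 9 of 59 inside peaks were lower (15.3%, 7.22 to 27%), and the share for all protein-coding genes, 22.4%, lies inside this interval.

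**Figure D4:**
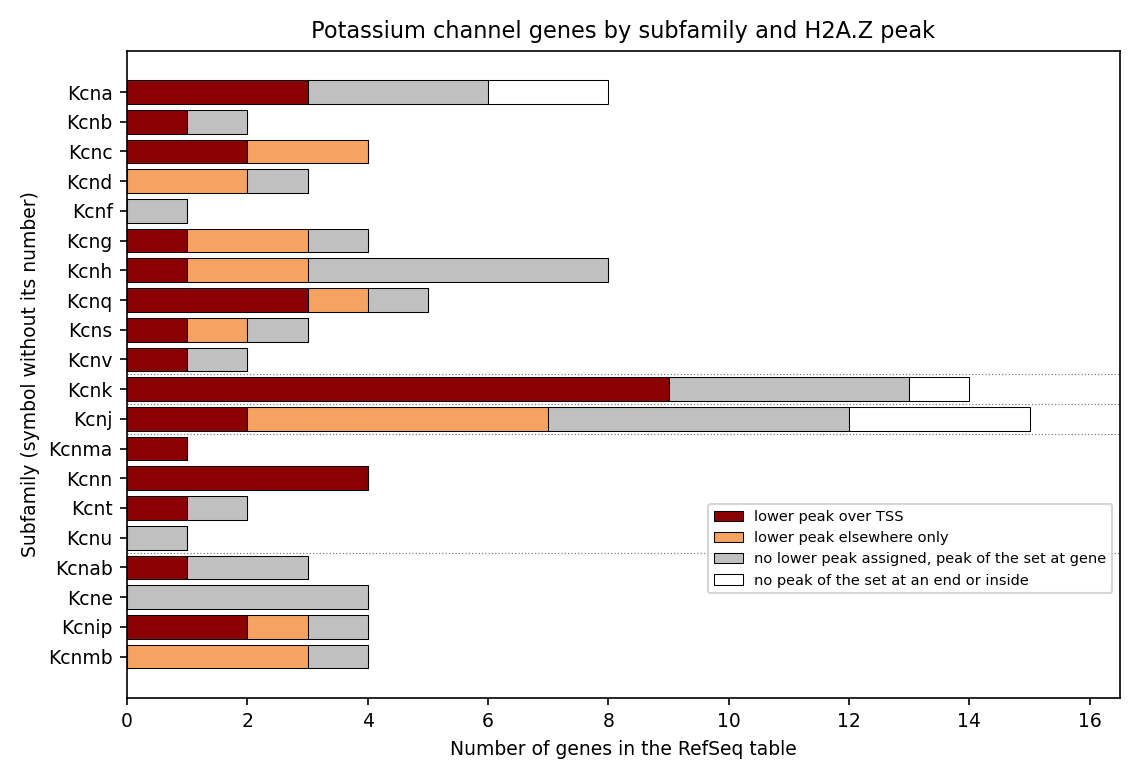
Bars count the 92 potassium channel genes of the RefSeq table by subfamily, split into genes with an assigned lower peak over a TSS, with assigned lower peaks elsewhere only, with peaks of the set at the gene but no assigned lower peak, and with no peak at an end or inside. The tandem-pore subfamily Kcnk has 9 of 14 genes with a lower peak over a TSS, and all 4 Kcnn genes have one.

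Most genes with a lower peak had 1 (31 genes), while 13 had 2, 7 had 3 and Kcnj4 had 4. At Kcnj4 and Kcnab2 every peak inside the gene was in the lower list (5 of 5 and 3 of 3). In Kcnd2 the 3 peaks inside the gene were in neither list, and its lower peaks spread over 507 kb upstream. The lower peaks of Kcnh2 spanned 33.2 kb and summed to 8803 base pairs, those of Kcnj4 summed to 7686.

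**Figure D5:**
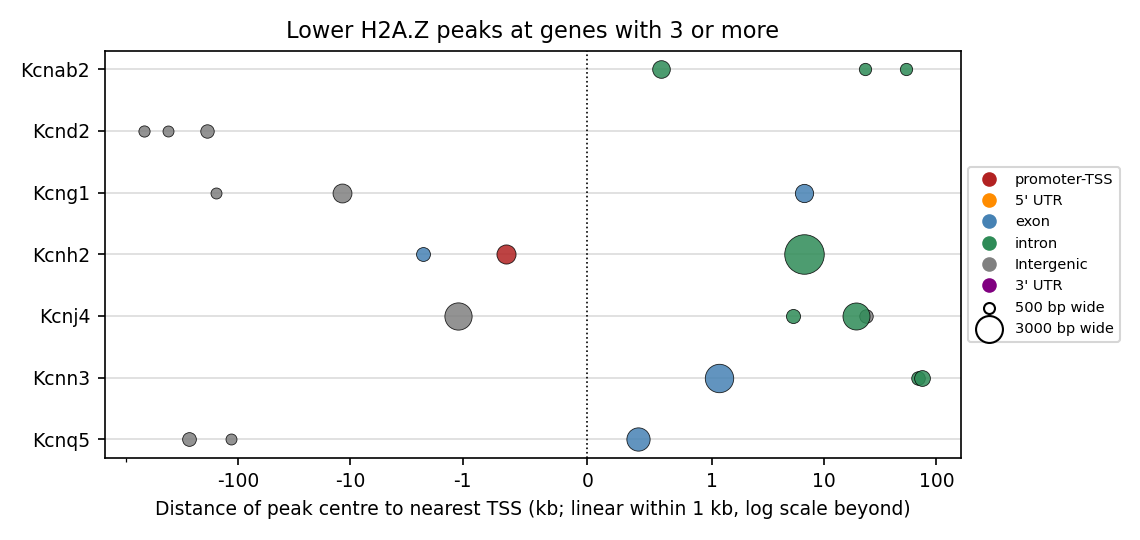
Each circle is a lower peak of 1 of 7 genes with 3 or more, by signed distance of its centre to the nearest TSS (kb, linear within 1 kb and log scale beyond), with area in proportion to width and colour for annotation class. Genes can have several TSSs, so peaks of 1 gene may be measured from different ones; Kcnd2 has only upstream intergenic peaks, and Kcnh2 has the widest peak, at 6.58 kb.

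Most of the far peaks were in repeats of one kind. Of the 36 lower intron and intergenic peaks, 9 were in L1Md elements (25.0%, 12.1 to 42.2%; all lower peaks, 18.6%). These 9 had a median width of 626 base pairs and lay 20.8 to 694 kb from the TSS. Of the 8 lower peaks beyond 100 kb, 6 were L1Md peaks, at Kcnd2, Kcnd3 and Kcnq5, and the others were at Kcng1 and Kcnn2. The L1Md share of all lower peaks beyond 100 kb was not counted, so this is no trait set apart for these genes. Among intergenic peaks alone, 7 of the 14 lower potassium channel peaks were in L1Md elements (interval 23.0 to 77.0%). The share of all lower intergenic peaks, 29.6%, lies inside this interval. CpG islands outside promoters and exons held 3 of the 36 (8.33%, 1.75 to 22.5%), against 13.8% of all lower intron and intergenic peaks.

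Assignment by nearest TSS and position inside a gene gave different peaks. Of the 82 lower peaks, 64 were centred inside the gene they were assigned to. Of those outside, 3 were inside another protein-coding gene, among them Kcnip1 and Fli1. Conversely, 82 lower peaks were centred inside a potassium channel gene or within 1 kb of its ends. Of these, 68 were assigned to potassium channel genes and 14 to others, among them a peak of 1500 base pairs in Kcnj10 (assigned to Pigm). A further 29 genes had peaks of the set at an end or inside with none listed, and 6 had no such peak (Kcna7, Kcna10, Kcnj13, Kcnj14, Kcnj15 and Kcnk5).

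The 3 higher peaks were far from the TSSs they were assigned to. At Kcna4 the peak of 774 base pairs was intergenic, 225 kb downstream of the TSS, in an RLTR13D6 element, a long terminal repeat of the ERVK family. The gene Kcnj3, a G protein-gated rectifier, had one of 643 base pairs in an RMER6C element of the same family at 134 kb, and one of 926 base pairs at 334 kb. The last lay in intron 12 of 12 of Galnt13, a glycosyltransferase gene. None of the 3 was inside or within 1 kb of a potassium channel gene.

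Other genes of membrane excitability were counted in the same way. Of 15 partner genes of potassium channels (regulatory subunits, pacemaker channels and genes named for a channel), 5 were assigned a lower peak (33.3%; all protein-coding genes, 26.8%). Abcc8, the sulphonylurea receptor that completes the channel of Kcnj11, had one of 501 base pairs at 178 base pairs from its TSS. Hcn4, the sinoatrial pacemaker channel, had 3, of 773, 2917 and 6354 base pairs, and Hcn3 had 2. Dpp6, a partner of Kcnd channels, had a 5′ UTR peak of 1477 base pairs, and Lrrc38, a large-conductance channel subunit, one of 1941. A peak at Lrrc26, also such a subunit, was lower but assigned elsewhere. Dpp10 held a higher peak of 501 base pairs in an RLTR13B1 element. Among genes of other cation and chloride channels, a lower peak was assigned to 13 of 22 calcium channel, 5 of 14 sodium channel and 5 of 9 Clcn genes, against 52 of 92 here. The share of inside peaks that were lower was 37.5% (27.8 to 48.0%) for calcium and 23.9% (12.6 to 38.8%) for sodium channel genes. It was 66.7% (22.3 to 95.7%) for Clcn genes, on only 6 peaks, and 28.9% for potassium channel genes. For the partner genes this share was 16.7% (8 of 48, 7.48 to 30.2%), and for all protein-coding genes 22.4%.

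Promoter sequence was compared for the 67 of 92 potassium channel genes with an entry in the RefSeq promoter table, which gave 92 TSSs. A peak of the set lay over 63 of these TSSs, and for 27 of the 63, at 20 genes, that peak was lower (42.9%, 30.5 to 56.0%), against 30.1% of 10122 TSSs of protein-coding genes with a peak. The interval starts just above the background, but it treats TSSs as separate units. TSSs of 1 gene can share a peak, as 4 of Kcnc2 and others of Kcnk2 and Kcnq5 do. The interval is therefore too narrow, and no excess over the background can be read from it. By gene, 20 had a TSS under a lower peak and 31 had one under a peak in neither list, with Kcnip3 and Kcnn1 in both. In the 300 bases around the TSS (250 upstream and 50 downstream), the TSSs under lower peaks had a median of 10 CpGs (quartiles 5 and 22), and those of all protein-coding genes under lower peaks 22 (14 and 29). They ran from 3 CpGs at 1 TSS each of Kcnab2, Kcnc2, Kcnk2 and Kcnq5 to 41 at Kcnj4, and other TSSs of Kcnk2 had 33. Potassium channel TSSs under peaks in neither list had a median of 14 (7 and 23.5; all protein-coding genes, 18). G exceeded C on the strand of the gene at 12 of the 27 (44.4%), and at 52.7% of the TSSs of all protein-coding genes under lower peaks. Most of this window lies upstream of the TSS, outside the transcript that starts there, so these counts do not measure R-loop formation.

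The RE1 site, bound by the repressor REST, which silences neuronal channel genes outside neurons, was looked for by its left and right parts on both strands of these 300-base windows. The left part, TTCAGCACC, was present at 1 of 92 potassium channel TSSs (1.09%, at Kcnh6) and 0.371% of all 32851 promoters. The right part, GGACAGC, was present at 11 of 92 (12.0%) and 6.56% of all promoters. No interval was computed for these small counts, and the 92 TSSs come from 67 genes. No excess over all promoters can therefore be read from them. A match is a description of letters in the window and no evidence of binding.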

How the data were processed

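The deposited files hold H2A.Z peak positions (the peak set) and 2 lists of peaks with lower and higher H2A.Z. Per the file headers, the authors annotated the lists with HOMER annotatePeaks on mm10, and positions and distances to the TSS are in base pairs. Trimmomatic, Bowtie2, Picard, HOMER and deepTools and the build GRCm38 are named in the submitters' processing notes. How peaks were called, whether replicates were pooled, and which test and threshold made the lists is not given in the sources used here.

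All listed peaks had the coordinates of a peak of the set, with starts printed counting from 1. All 85 gene names matched RefSeq (GRCm38.p6) through their Entrez IDs. Peaks of the set were placed at genes by their centre, inside or within 1 kb of either end, and the placement was tested on simulated data. A peak was counted over a TSS if its distance was at most its width divided by 2. Shares have 95% exact Clopper-Pearson intervals and medians order-statistic intervals. Members, gene lists and named genes (higher, promoter and 5′ UTR peaks, the 10 widest, the 5 nearest and 5 farthest, genes with 3 or more, up to 3 genes per subfamily, partners with a lower peak) were chosen with earlier results of these data known. Other genes were named after their values were seen, and so was the limit of sequences to outermost TSSs. The other 48 of 56 libraries, for 9 more targets, are not used here. Intervals came from SciPy 1.17.1, tables from pandas 2.3.3 and numpy 2.4.6 in Python 3.11.15, and figures from matplotlib 3.10.9. Some genes of the family are counted in totals but their own values are not reported here.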

Additional observations from a re-analysis of the deposited data

How the results depend on the processing

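The count of lower potassium channel peaks was 82 as deposited, 82 through Entrez IDs, 83 with every symbol that starts with Kcn (the addition is Kcne1l), 71 without minimum-width peaks and 82 by position at the gene. The higher count was 3 as deposited, through Entrez IDs and without minimum-width peaks, but 0 by position at the gene. The promoter share of 20.7% became 40.2% within 1 kb and 50% within 3 kb of a TSS, and 32.7% with 1 peak per gene. With 1 peak per gene the median distance fell from 2.83 to 0.648 kb and the median width rose from 1036 to 1459 base pairs, because the nearest or widest peak was kept. Without minimum-width peaks the median distance was 1.66 kb and the median width 1230 base pairs. The share of lower peaks at gene ends ran from 34.1 to 41.6% over windows of 500 base pairs and 3 kb and the overlap rule, and that inside genes was 28.7% by overlap and 31.2% without minimum-width peaks. No paired analysis was possible because the files hold no value per library, and for the same reason no library could be left out and no stricter threshold applied.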
